A study of Mus musculus with 14 samples.

Results

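A set of 10 genes that mark or maintain spermatogonial stem cells was followed through 14 RNA sequencing libraries of sorted mouse germ cells. They are Gfra1, Ret, Etv5, Id4, Zbtb16, Sall4, Foxo1, Nanos2, Nanos3 and Lin28a. The members were chosen by name, and all 10 were found once in both count tables, which together name 38444 genes. The libraries form 4 groups: Dnmt3C KO/KO (KO) and wildtype (WT) spermatogonia (Spg, 3 libraries each) and KO and WT spermatocytes (Spc, 4 libraries each). KO mice lack DNMT3C, the DNA methyltransferase that methylates promoters of young retrotransposons in fetal male germ cells. The control mice were littermates with no deletion named in the labels. Spg came from testes at postnatal day 14, sorted as live cells that stained for Ep-CAM and not for beta-2-microglobulin. Spc came from mice older than 20 days, sorted as live cells by DNA content and size with a Hoechst dye, so age and sort differ between the stages along with the stage itself. The study compared the genotypes to learn how retrotransposons are transcribed when their promoters stay unmethylated.

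Spermatogonial stem cells divide to renew themselves or to give rise to differentiating spermatogonia, which later enter meiosis as spermatocytes. Sertoli cells secrete GDNF, which binds the co-receptor GFRA1 and the receptor tyrosine kinase RET on the stem cell and keeps targets such as Etv5 and Id4 active. The zinc finger proteins ZBTB16 and SALL4, the forkhead factor FOXO1 and the RNA-binding proteins NANOS2, NANOS3 and LIN28A act in the same undifferentiated cells, and most of these genes are turned down as cells differentiate.

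Total counts ran from 40555726 to 53323651 per library. Counts of the targeted gene were not lower in KO: Dnmt3c had 58 to 116 counts in KO and 53 to 89 in WT Spg, and 52 to 57 in KO and 11 to 28 in WT Spc, and the labels do not say which bases the allele lacks. Spc libraries 1 and 4 of each genotype were much alike, with a chi-square per feature of 11.7 in KO and 15.5 in WT against 130 to 299 for the other Spc pairs. These values lie above the value near 1 that counting alone gives, and the libraries were kept separate. Repeat libraries of the same cells could exceed that value too, so it is not known whether libraries 1 and 4 are independent replicates. The paper names 3 biological replicates per group, while 4 Spc libraries per genotype are given. Fits with libraries 1 and 4 summed are reported below. The summed CPM (counts of a gene per 1e6 counts of the library, scaled with TMM factors) of 8 pachytene markers were 8681 to 15920 in WT Spc and 200 to 463 in KO Spc, while those of 8 early meiotic markers were 1343 to 2409 and 1239 to 2313. Single early meiotic markers were less alike: 3 of the 8 were called higher and 1 lower in KO Spc, beside 27.4% and 30.1% of all features. Dmc1, Prdm9 and Meiob had higher means in KO Spc (120, 61.45 and 147 CPM, against 16.8, 6.25 and 36.9 in WT). Spo11 had a lower one (32.6 against 138), and the means of the others differed less. The KO Spc libraries also held more RNA of somatic marker genes: the sum of 7 peritubular and stromal markers was 372 to 3994 CPM, against 34.8 to 45.1 in WT Spc and 32.0 to 42.7 in Spg. Sertoli markers were present in Spg as well, with sums of 289 to 1358 CPM there, 275 to 1017 in KO Spc and 122 to 476 in WT Spc. Of the 7 stromal genes 6 were called higher in KO Spc, as were 6 of 6 Leydig, 6 of 6 macrophage, 2 of 4 endothelial and 1 of 8 Sertoli markers, beside 27.4% of all features, and none of these markers was at 0 in a whole group. The Leydig count was 2 of 6 without KO libraries 1 and 4 (14.3% of all features higher in that fit), and the Sertoli count was 0 of 8 without them, 3 with library totals (36.5%) and 5 by the DESeq2 Wald test (33.1%). In these bulk samples fewer cells of a type and less RNA per cell cannot be told apart, and the labels do not tie each library to 1 animal, so p-values measure the spread between these libraries.

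RefSeq promoter entries on GRCm38.p6 were found for 7 of the 10 genes (all but Zbtb16, Ret and Sall4). The part before the annotated starts is shown for 4 of them because DNA methylation acts at CpG and these genes span the range from no CpG to many. Capitals mark each CpG, and every line runs 5′ to 3′ on the strand of the gene. The first is chr13:48260866-48261115 (plus strand), the second chr3:52268087-52268335 (plus), the third chr4:134018842-134019066 (minus) and the fourth chr7:18987274-18987399 (plus).
Id4: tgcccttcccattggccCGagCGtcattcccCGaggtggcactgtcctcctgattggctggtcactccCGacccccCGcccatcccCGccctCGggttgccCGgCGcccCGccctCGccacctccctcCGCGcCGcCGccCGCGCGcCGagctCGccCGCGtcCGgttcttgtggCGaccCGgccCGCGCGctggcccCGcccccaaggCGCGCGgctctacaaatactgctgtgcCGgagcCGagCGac
Foxo1: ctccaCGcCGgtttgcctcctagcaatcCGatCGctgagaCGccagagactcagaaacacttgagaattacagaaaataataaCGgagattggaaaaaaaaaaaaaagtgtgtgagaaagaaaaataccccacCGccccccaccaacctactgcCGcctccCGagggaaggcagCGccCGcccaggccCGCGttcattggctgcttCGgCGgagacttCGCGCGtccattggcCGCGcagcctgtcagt
Lin28a: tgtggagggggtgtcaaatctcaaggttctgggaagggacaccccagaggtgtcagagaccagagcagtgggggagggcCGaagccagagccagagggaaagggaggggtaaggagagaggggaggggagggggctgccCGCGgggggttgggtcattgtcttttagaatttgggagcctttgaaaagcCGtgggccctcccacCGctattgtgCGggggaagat
Nanos2: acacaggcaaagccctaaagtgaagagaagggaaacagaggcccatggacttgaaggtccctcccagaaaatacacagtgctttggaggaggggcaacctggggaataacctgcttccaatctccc

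Over the 250 bases before the RefSeq start, Id4 had 35 CpG, more than 97.0% of the 32851 promoters in the table. Foxo1 had 20, Gfra1 10, Lin28a 7, Nanos3 3 and Nanos2 0, and the 2 Etv5 starts had 27 and 18, against a median of 6 over all promoters. The core TGCGC of the NRF1 motif, read on both strands, occurred in Foxo1 (1), Nanos3 (2) and both Etv5 starts (2 each) and in 25.6% of all promoters. The core TGACG of the cAMP response element occurred once, in Id4, and in 17.8% of all promoters.

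Across the 4 groups, 8 of the 10 genes had their highest mean level in Spg and 9 of the 10 were lower in WT Spc than in WT Spg. Id4 was the exception in direction, and Etv5 had its highest mean in KO Spc. Calls below are edgeR quasi-likelihood tests with Benjamini-Hochberg adjustment over all genes and retrotransposon subfamilies, at an adjusted p under 0.01. KO against WT Spg gave 0 of 10 members called, beside 0.0741% of all features called. WT Spc against WT Spg gave 10 of 10 (9 lower and 1 higher), beside 51.4% of all features (22.5% lower and 28.9% higher), and the groups did not overlap for any of the 10, beside 65.2% of all features (29.8% lower and 35.4% higher). KO against WT Spc gave 7 of the 9 members tested (6 higher and 1 lower), beside 57.4% of all features, with 27.4% higher and 30.1% lower. KO Spc against KO Spg gave 0 of 10, beside 2.99%. The plot of levels by library shows the values that follow.

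**Figure D1:**
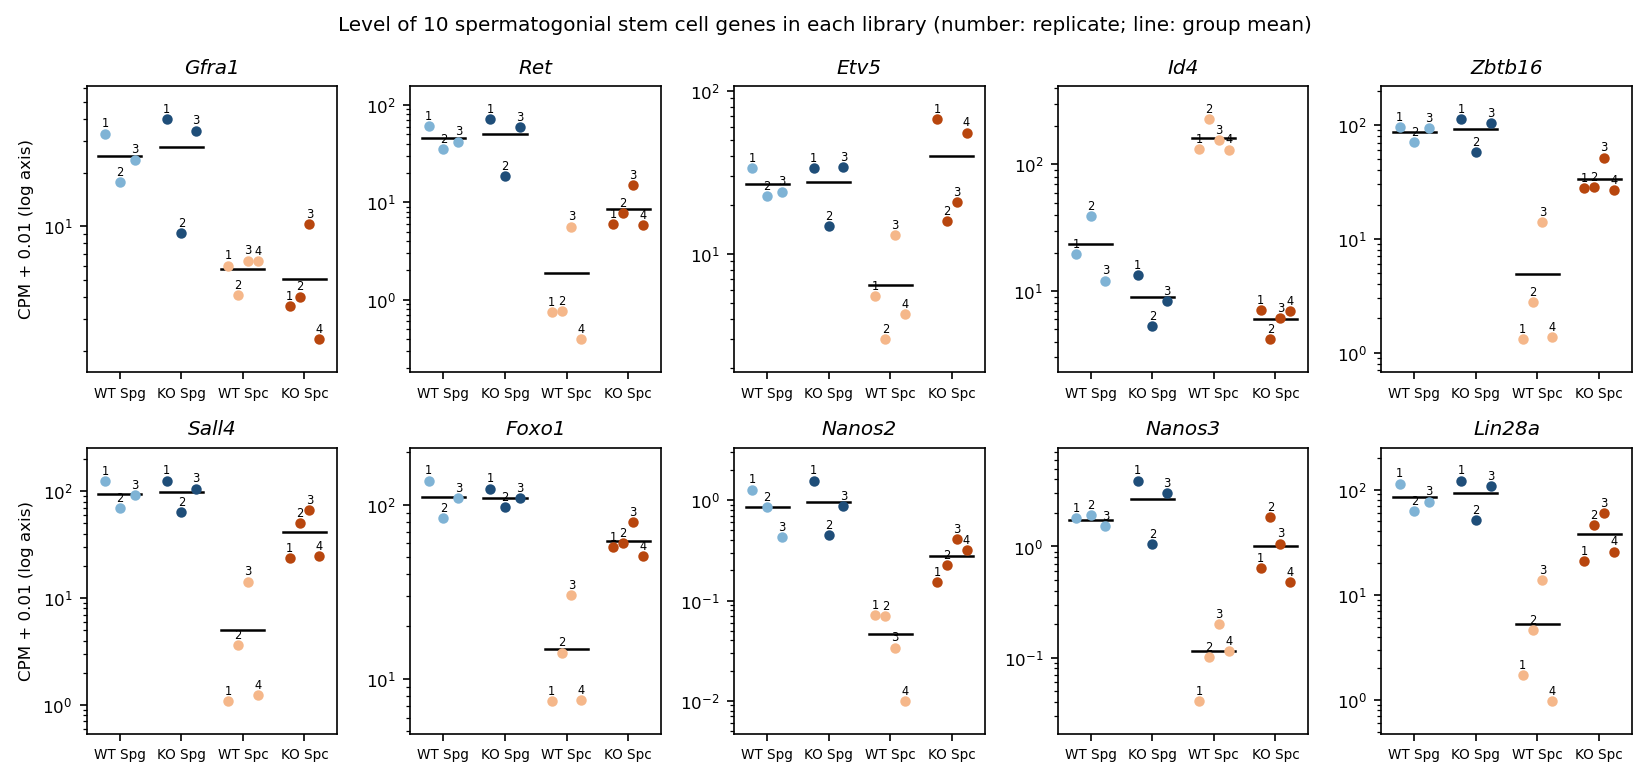
Level of each gene in every library, in CPM plus 0.01 on a log axis, for WT and KO spermatogonia (3 libraries each) and WT and KO spermatocytes (4 each). Points are libraries with their replicate number and lines are group means. The 6 Spg libraries lie together for most genes, WT Spc lie lowest except for Id4 and Gfra1, and WT Spc library 3 lies above the other WT Spc libraries for Zbtb16, Ret, Sall4 and Lin28a.

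Gfra1 (ENSMUSG00000025089.15, chr19:58235604-58455909, minus strand, GRCm38) encodes the GDNF co-receptor. It had 33.1, 17.6 and 23.7 CPM in WT Spg libraries 1 to 3 and 40.0, 9.10 and 34.4 in KO Spg. It had 5.99, 4.10, 6.40 and 6.33 CPM in WT Spc libraries 1 to 4 and 3.54, 4.01, 10.3 and 2.30 in KO Spc. Both genotypes overlapped at each stage, with KO library 2 low in Spg and KO library 3 high in Spc. Gfra1 was 4.35-fold lower in WT Spc than in WT Spg (log2 fold change -2.12, SE 0.52, edgeR adjusted p = 0.0028), a call lost without WT Spc library 2 (adjusted p = 0.0102). The KO and WT Spc levels differed by -0.16 (SE 0.48, edgeR adjusted p = 0.774), a value that turned to 0.56 when library totals replaced TMM factors.

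Ret (ENSMUSG00000030110.13, chr6:118151745-118197718, minus strand) encodes the signalling receptor of the pair. WT Spg held 60.6, 35.1 and 42.2 CPM and KO Spg 71.7, 18.8 and 58.9. WT Spc held 0.741, 0.753, 5.63 and 0.383 CPM and KO Spc 5.96, 7.76, 15.1 and 5.78. The Spg groups overlapped, whereas the lowest KO Spc library lay just above WT Spc library 3. Ret was 24.1-fold lower in WT Spc than in WT Spg (log2 fold change -4.59, SE 0.80, edgeR adjusted p = 0.00024). Without WT Spc library 3 it was -6.17. The difference between KO and WT Spc (2.24, SE 0.81, edgeR adjusted p = 0.029) missed the threshold. It was 3.81 (adjusted p = 0.00026) without WT Spc library 3 and 1.83 (adjusted p = 0.073) without KO Spc library 3.

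Etv5 (ENSMUSG00000013089.15, chr16:22381309-22439719, minus strand) encodes an ETS factor that GDNF and FGF signals induce in stem cells and that Sertoli cells also make. Its levels were 33.5, 22.5 and 24.1 CPM in WT Spg and 33.6, 14.8 and 33.9 in KO Spg. In Spc they were 5.53, 2.98, 13.1 and 4.28 CPM for WT and 67.1, 15.8, 20.7 and 55.3 for KO. KO Spc libraries 1 and 4 thus exceeded every Spg library, while KO libraries 2 and 3 lay within the Spg range, and all 4 lay above WT Spc. The rise in KO over WT Spc was 6.25-fold (log2 fold change 2.64, SE 0.60, edgeR adjusted p = 0.0030), or 3.24 on the log2 scale without WT library 3. KO libraries 1 and 4 also had the highest sums of stromal markers (3994 and 3406 CPM, against 2352 and 372 in libraries 2 and 3), Sertoli markers (1017 and 944, against 371 and 275) and Leydig markers (356 and 290, against 57.3 and 64.9). Single stromal markers were not alike: Dcn, Pdgfra and Des were highest in libraries 1 and 4, whereas Acta2, Myh11, Cnn1 and Col1a1 were highest in library 2. Without these 2 libraries the Etv5 difference was 1.52 (adjusted p = 0.047), below the threshold, and the part of the stromal, Sertoli and Leydig RNA in the result was not tested. Etv5 was 4.12-fold lower in WT Spc than in WT Spg (log2 fold change -2.04, SE 0.56, edgeR adjusted p = 0.0052). This call was lost without WT Spg library 1 or WT Spc library 1, 2 or 4 (adjusted p from 0.0141 to 0.0175) and with Spc libraries 1 and 4 summed (0.0177). Of its stretches of 50 bases 24.5% also occur in the pseudogene Gm4798, so its count is uncertain by the reads shared between them, and Gm4798 itself had 0 to 25 counts against 99 to 3321 for Etv5.

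Id4 (ENSMUSG00000021379.2, chr13:48261228-48266026, plus strand) encodes an inhibitor of helix-loop-helix factors whose reporter marks cells with stem cell activity in mice. It had 19.7, 38.8 and 12.1 CPM in WT Spg and 13.4, 5.32 and 8.37 in KO Spg. In WT Spc it reached 132, 228, 156 and 131 CPM, whereas KO Spc held 7.12, 4.16, 6.10 and 6.90. Every WT Spc library was above every other library of the series, and the 3 other groups overlapped with a neighbour. Id4 was 6.87-fold higher in WT Spc than in WT Spg (log2 fold change 2.78, SE 0.43, edgeR adjusted p = 9.3e-05). It fell 26.1-fold in KO against WT Spc (log2 fold change -4.70, SE 0.28, edgeR adjusted p = 2.8e-06). This call held without each library in turn. Per kilobase of exon it was the most abundant of the 10 genes in WT Spc, at 42.0 ± 11.9 CPM per kb (SD, n = 4), with Foxo1 next at 1.71 ± 1.23.

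In Spg the Id4 difference was -1.43 (SE 0.49), the largest of the 10 genes, with an unadjusted p of 0.0193 and an edgeR adjusted p of 0.445. Without each library in turn it ran from -1.80 to -0.82, the smallest size being without WT library 2. WT library 2, which was highest for Id4, was also highest in the pachytene sum, with 1473 CPM against 444 and 223 in WT libraries 1 and 3 and 122 to 150 in KO Spg, although none of the 8 pachytene markers was called in Spg. Ldhc, the lactate dehydrogenase of meiotic and later germ cells, was at 70.5, 371 and 18.0 CPM in WT Spg and at 1.74 to 2.04 in KO Spg. Id4 and the pachytene sum thus had the same order in the 3 WT libraries. Between libraries of the same number Id4 was lower in KO in 3 of 3 pairs, although KO library 1 was above WT library 3, and with the replicate block the difference was -1.31 (edgeR adjusted p = 0.374). The part of meiotic RNA in the Spg values was not tested.

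**Figure D2:**
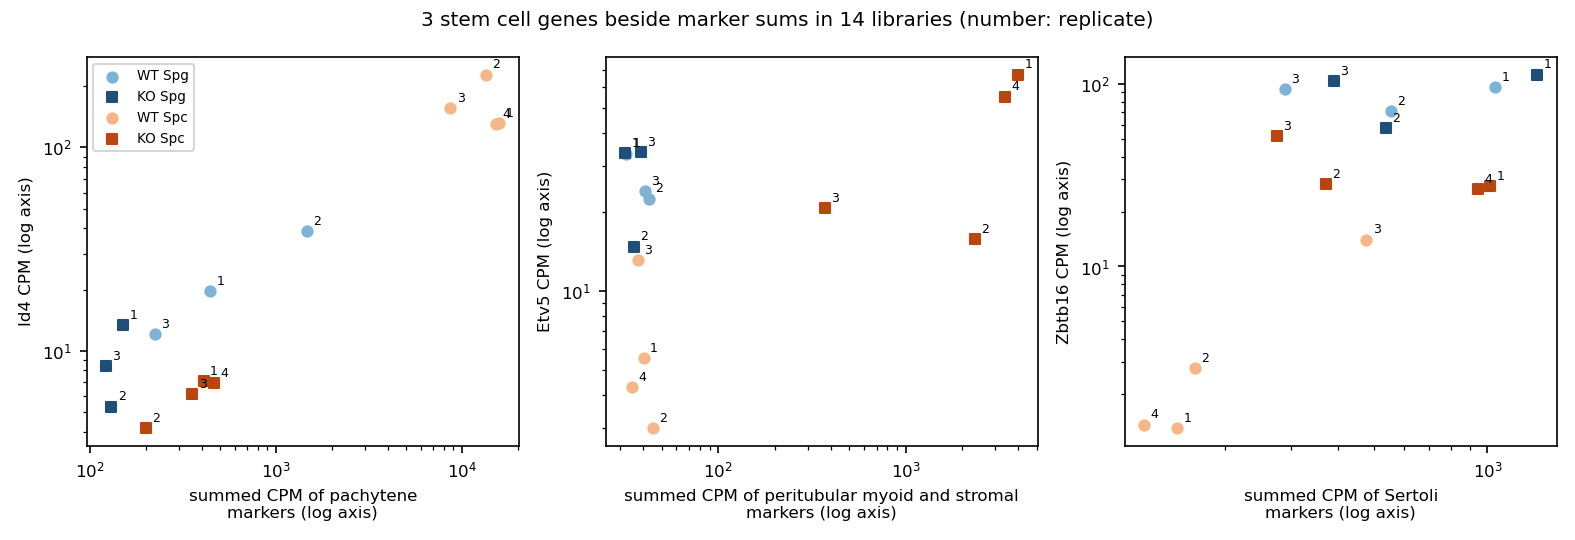
Id4, Etv5 and Zbtb16 (CPM, log axes) against the summed CPM of pachytene, peritubular and stromal, and Sertoli markers in 14 libraries. Colours and shapes give the group and numbers the replicate. Id4 and the pachytene sum are both highest in WT Spc and, within WT Spg, in library 2. KO Spc libraries 1 and 4 are at the top for Etv5 and the stromal sum, and WT Spc library 3 has the highest Zbtb16 level and Sertoli sum of its group.

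Zbtb16 (ENSMUSG00000066687.5, chr9:48654297-48836222, minus strand) encodes PLZF, a repressor required to keep the stem cell pool. Its levels were 95.9, 70.8 and 94.1 CPM in WT Spg and 113, 57.4 and 104 in KO Spg. They were 1.30, 2.77, 14.04 and 1.36 CPM in WT Spc and 27.7, 28.2, 51.7 and 26.6 in KO Spc. KO Spc lay between Spg and WT Spc with no overlap on either side, and library 3 was high in both Spc groups. Zbtb16 was 17.7-fold lower in WT Spc than in WT Spg (log2 fold change -4.15, SE 0.70, edgeR adjusted p = 0.00018), with -5.57 when WT Spc library 3 was left out. It was 7.10-fold higher in KO than in WT Spc (2.83, SE 0.75, edgeR adjusted p = 0.0068), and was called in 1 of the 8 fits that left out a Spc library. That was the fit without WT library 3 (4.24 on the log2 scale, adjusted p = 5.8e-05), while the adjusted p reached 0.0227 without WT library 2 and the log2 fold change was 2.49 without WT library 1.

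Sall4 (ENSMUSG00000027547.17, chr2:168748332-168767943, minus strand) encodes a zinc finger factor of undifferentiated germ cells. WT Spg had 124, 69.7 and 91.6 CPM and KO Spg 126, 64.2 and 106. WT Spc had 1.08, 3.62, 14.3 and 1.22 CPM and KO Spc 23.8, 50.7, 67.2 and 24.8. As for Zbtb16, WT Spc library 3 was far above its group but under each KO library, although KO Spc library 3 was here above KO Spg library 2. Sall4 was 18.7-fold lower in WT Spc than in WT Spg (log2 fold change -4.22, SE 0.76, edgeR adjusted p = 0.00028). In KO it was 8.49-fold higher than in WT Spc (3.09, SE 0.81, edgeR adjusted p = 0.0065). Leaving out WT Spc library 3 gave -5.57 for the stage and 4.42 for the genotype.

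Foxo1 (ENSMUSG00000044167.6, chr3:52268336-52353221, plus strand) encodes the forkhead factor that sits in the nucleus of stem cells and drives several of their genes. It had 138, 84.0 and 109 CPM in WT Spg and 124, 97.1 and 109 in KO Spg. It had 7.47, 14.2, 30.2 and 7.55 CPM in WT Spc and 57.3, 60.02, 79.7 and 50.7 in KO Spc. The Spc groups were separate and WT library 3 was again the highest of its group. Foxo1 was 7.41-fold lower in WT Spc than in WT Spg (log2 fold change -2.89, SE 0.41, edgeR adjusted p = 5.7e-05). It was 4.28-fold higher in KO than in WT Spc (2.10, SE 0.44, edgeR adjusted p = 0.0018). The values without WT Spc library 3 were -3.49 and 2.696.

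Nanos2 (ENSMUSG00000051965.8, chr7:18987400-18988962, plus strand) encodes the RNA-binding repressor that holds stem cells undifferentiated, and was the rarest of the 10 genes. WT Spg had 1.26, 0.836 and 0.419 CPM and KO Spg 1.56, 0.440 and 0.869, from 23 to 91 counts per library. WT Spc libraries had at most 2 counts each, 5 in all, whereas KO Spc had 7 to 21 each, 55 in all. The Spc groups did not overlap and the Spg groups did. The gene was left out of the fit of Spc by the filter on low counts. The ratio of KO to WT Spc counts per library size was 7.23, with an exact 95% interval of 2.92 to 23.2 that covers counting error only, and a fit without the filter gave an edgeR adjusted p of 0.0145. With Spc libraries 1 and 4 summed it passed the filter and was called (edgeR adjusted p = 0.0066). It also passed in 5 fits that left out a library and was called in 3 (edgeR adjusted p from 0.0059 to 0.0141 over the 5). WT Spc against WT Spg had a ratio of 0.0434 (95% interval 0.0139 to 0.104, counting error only) and was called in the fit of all libraries (edgeR adjusted p = 0.00016).

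Nanos3 (ENSMUSG00000056155.6, chr8:84173731-84185217, minus strand) encodes the paralog found also in early differentiating cells. It had 1.80, 1.89 and 1.51 CPM in WT Spg and 3.90, 1.04 and 2.998 in KO Spg. WT Spc held 0.0309, 0.0904, 0.192 and 0.104 CPM, from 1 to 8 counts, and KO Spc 0.627, 1.83, 1.05 and 0.468. KO Spc library 2 was highest here, within the WT Spg range, and all KO libraries were above all WT libraries in Spc. Nanos3 was 9.24-fold higher in KO than in WT Spc (log2 fold change 3.21, SE 0.63, edgeR adjusted p = 0.0012). It was 15.8-fold lower in WT Spc than in WT Spg (-3.98, SE 0.63, edgeR adjusted p = 0.00012). In Spg its difference was 0.57 (SE 0.47), the highest positive value of the 10 genes, with an adjusted p of 0.9996.

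Lin28a (ENSMUSG00000050966.9, chr4:134003330-134018841, minus strand) encodes the RNA-binding protein that blocks maturation of let-7 miRNAs. WT Spg had 114, 62.1 and 76.9 CPM and KO Spg 122, 51.3 and 107. WT Spc had 1.73, 4.64, 13.9 and 0.974 CPM and KO Spc 21.1, 45.7, 59.8 and 25.7. WT Spc library 3 and KO Spc libraries 2 and 3 were the high ones of their groups, and the genotypes did not overlap in Spc. Lin28a was 15.8-fold lower in WT Spc than in WT Spg (log2 fold change -3.98, SE 0.72, edgeR adjusted p = 0.00031). The gene was 7.40-fold higher in KO than in WT Spc (2.89, SE 0.76, edgeR adjusted p = 0.0064). With WT Spc library 3 left out these values were -5.08 and 3.98. Per kilobase of exon it led the 10 genes in Spg, at 21.1 ± 6.65 CPM per kb in WT and 23.4 ± 9.33 in KO (SD, n = 3).

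Between KO and WT Spg the genotypes thus overlapped for all 10 genes, where 11.9% of all features had groups without overlap. Apart from Id4 and Nanos3 the log2 fold changes lay between -0.04 and 0.14. At an unadjusted p under 0.05 there was 1 member (Id4), against 7.26% of all features, and DESeq2 called 0 members. Libraries differed more than genotypes: KO Spg library 2 was the lowest KO library for all 10 genes, and WT library 2 was the lowest WT library for 7. These 2 libraries carry the same number, and the deviations of same-numbered Spg libraries from their group means correlated positively over all genes. For 8 genes, all but Id4 and Nanos3, the direction changed when a library was left out.

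**Figure D3:**
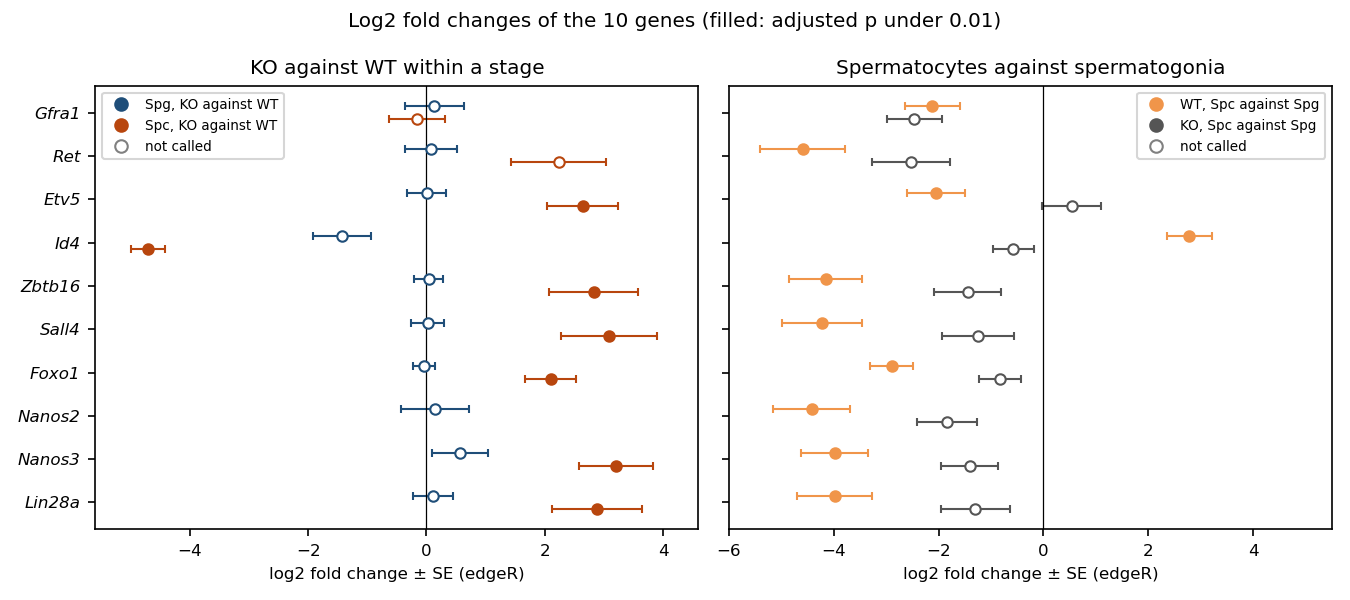
Log2 fold changes with their standard errors from edgeR for the 10 genes. Filled points are called at an adjusted p under 0.01. Left, KO against WT within spermatogonia and within spermatocytes, where Nanos2 was not tested in spermatocytes. Right, spermatocytes against spermatogonia within WT and within KO. In Spg all points are open and, but for Id4 and Nanos3, near 0, in Spc 6 are filled to the right and Id4 far to the left, and the WT stage differences are larger in size than those in KO for 9 of the genes.

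In Spc the genotypes did not overlap for 8 of the 9 genes tested (7 higher and 1 lower in KO), beside 67.5% of all features (33.7% higher and 33.8% lower). The median log2 fold change of the 9 genes was 2.64, against 0.11 for all genes. With library totals in place of TMM factors the median of all genes moved to 0.79 and that of the members to 3.18, and the same numbers of members (6 higher and 1 lower) were called, beside 36.5% of all features higher and 21.7% lower. Id4, Nanos3 and Foxo1 were called without each of the 8 libraries in turn, Etv5 in 6 of the 8 fits, Sall4 and Lin28a in 3 and Zbtb16 and Ret in 1. Nanos2 was called in 3 of the 5 fits that tested it. The count of called members was 4 without KO library 2, KO library 3 or WT library 1 (beside 45.6% to 52.0% of all features), 3 without WT library 4 (46.1%) and 8 without WT library 3 (60.5%). With libraries 1 and 4 of each genotype summed it was 4 of 10 tested, beside 38.2% of all features in that fit, and without KO libraries 1 and 4 it was 3 of 10, beside 37.2%, so these counts were near the background.

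WT Spc library 3 was the highest of its group for 8 of the 10 genes. It also had the highest Sertoli sum of the WT Spc libraries (476 CPM, against 122 to 166), the highest spermatid sum (1488 CPM, against 66.3 to 508) and the highest level of Kit, the receptor of differentiating spermatogonia (48.7 CPM, against 4.73 to 17.2). The sum of the 8 markers of differentiating spermatogonia, Kit among them, was lowest in this library (765 CPM, against 834 to 1812). Of that list Dmrtb1 was lowest there (525 CPM, against 734 to 1785), whereas all its other members were highest there. Within KO Spc, libraries 2 and 3 were higher than 1 and 4 for Gfra1, Ret, Zbtb16, Sall4, Foxo1, Nanos3 and Lin28a, as they were for Kit (170 and 206 CPM, against 81.2 and 77.3). The stromal, Sertoli and Leydig sums were highest in libraries 1 and 4, while the macrophage sum (129 CPM, against 24.8 to 66.6) and 4 of the 7 stromal markers were highest in library 2. The part of these other cell types in the results was not tested, and the log2 fold changes of Ret, Zbtb16, Sall4, Foxo1, Nanos3 and Lin28a were larger without WT library 3 (2.696 to 4.424).

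**Figure D4:**
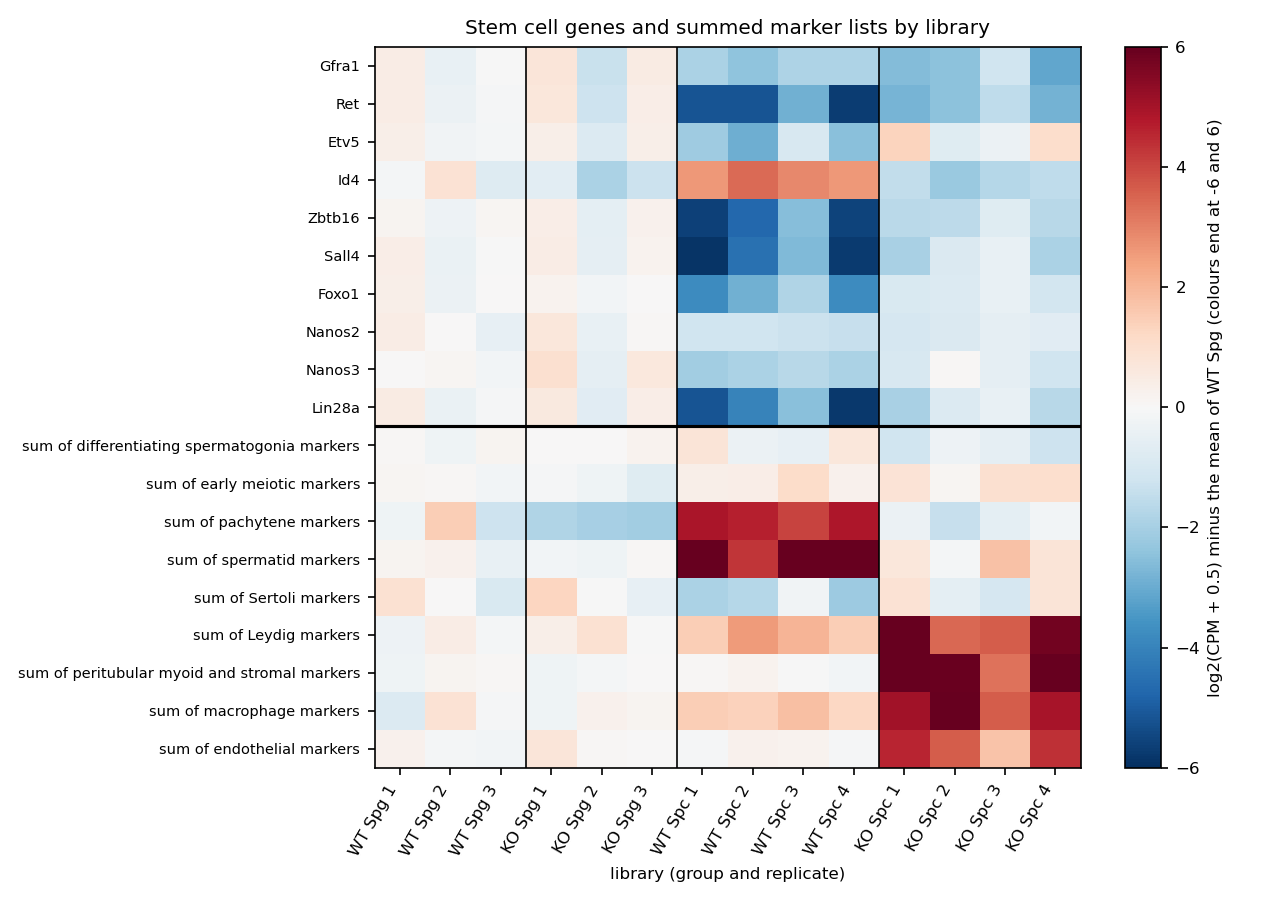
Each row is a gene, or the summed level of a marker list below the line, and each column a library. Colours give log2(CPM + 0.5) minus the mean of WT Spg, which compresses changes of rare genes such as Nanos2. All genes but Id4 are blue in WT Spc, most of them paler in library 3 and in KO Spc, Id4 is red in WT Spc, and the Leydig, stromal, macrophage and endothelial rows are red in KO Spc.

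KO Spc against KO Spg set the same 10 genes side by side between the sorted populations of the mutant. None of the 10 was called by edgeR, 5 had an unadjusted p under 0.05 (24.5% of all features did), and DESeq2 called 2, beside 9.53% of all features. The count was 1 without KO Spg library 2, KO Spc library 3 or WT Spc library 3, beside 0.605% to 4.04% of all features. Gfra1 (-2.47, SE 0.53, edgeR adjusted p = 0.011) and Ret (-2.53, SE 0.74, edgeR adjusted p = 0.0496) had the lowest adjusted p, and Gfra1 was -3.14 and called without KO Spc library 3. Among the others, values ran from -1.84 for Nanos2 to -0.57 for Id4 and 0.53 for Etv5, which turned to -0.65 without KO Spc libraries 1 and 4. The median was -1.35 in KO, against -3.98 in WT, and the 2 comparisons share no library. Groups did not overlap for 4 of the 10 genes in KO, all lower, beside 26.2% of all features in either direction and 10.6% lower.

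The difference of the KO effect between stages was tested in 1 fit of all 14 libraries. Id4 was called (-3.36, SE 0.56, edgeR adjusted p = 0.00065), beside 24.9% of all features in either direction and 14.3% lower. The KO effect on Id4 was thus more negative in Spc than in Spg. For the 8 other genes apart from Gfra1 the difference was positive, from 2.06 for Foxo1 to 2.98 for Sall4, with edgeR adjusted p from 0.011 to 0.12. Foxo1 (adjusted p = 0.0107) and Etv5 (0.0179) came closest. Gfra1 had -0.34 (SE 0.73, adjusted p = 0.730). The count of 1 became 7 without WT Spc library 3 (beside 36.4% of all features) and 2 without WT Spg library 2 (23.7%) or KO Spc library 2 (23.5%).

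Of 20 other genes of undifferentiated spermatogonia, 17 were called lower in WT Spc than in WT Spg and 0 higher, beside 22.5% and 28.9% of all features. In KO against WT Spc 6 of 19 tested rose and 0 fell, with a median of 2.44, beside 27.4% of all features called higher and 30.1% lower. The count that rose depended on the setting: it was 3 with libraries 1 and 4 summed (15.4% of all features), 9 with library totals (36.5%) and 13 by the DESeq2 Wald test (33.1%). The 5 with the lowest p were Taf4b (3.06), a TFIID subunit needed to keep the stem cell pool, Dusp6 (2.90), which restrains ERK signalling, the laminin receptor subunit Itga6 (1.82), Adgra3 (1.77) and Pax7 (2.98). In Spg none of the 20 was called.

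Of 20 genes of GDNF and FGF signalling, 11 were higher and 1 lower in KO than in WT Spc, beside 27.4% and 30.1% of all features. By p the first were Fgf2 (4.37), the receptor Fgfr1 (4.19), the kinase Src (1.84), the feedback inhibitor Spry2 (3.74) and Egr2 (3.43). The lower gene was Ncam1 (-2.26), named after its value was seen. Fgf2 was at 30.8 and 33.2 CPM in KO Spc libraries 1 and 4 against 13.2 and 7.61 in libraries 2 and 3, the same division as Etv5. Fgfr1 (112 and 93.0, against 57.0 and 33.4) and Spry2 (25.2 and 20.9, against 7.85 and 5.32) divided in this way too. Egr2 did so less (8.77 and 8.05, against 7.58 and 5.72) and Src did not. The part of other cell types in these values was not tested.

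Paralogs of the members did not follow one direction. In KO against WT Spc 9 of 16 rose and 2 fell, beside 27.4% and 30.1% of all features. Id1, Id2 and Id3, the relatives of Id4, were higher by 6.04, 4.80 and 6.15 on the log2 scale where Id4 fell. Id3 was at 133, 24.01, 11.95 and 100.2 CPM in KO Spc and at 0.525 to 1.24 in WT Spc, so KO libraries 1 and 4 were the high ones. Foxo4, a relative of Foxo1, was higher by 3.16. Gfra4 (-3.79) fell, as did Sall3 (-3.72, named after its value was seen), and Gfra4 was at 24.96 to 68.7 CPM in WT Spc and 2.38 to 5.84 in KO Spc. Among partners of NANOS proteins in RNA repression, Cnot1 (-2.10) fell and Pum2 (1.46) rose in KO against WT Spc, and neither was called in Spg.

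Foxf1, Erbb3, Dgkk and Large2 were among the other genes with levels most like the mean standardised level of the 10 members over the 14 libraries, with Pearson's r from 0.981 to 0.992. Over the 8 Spc libraries these included Igsf3, Klhl12, Tmtc4 and Nptx1 (0.991 to 0.992). Among the members, r with this mean was lowest for Id4 (-0.61 over 14 libraries and -0.84 over 8) and then for Etv5 (0.72) and Gfra1 (0.79) over 14, and Gfra1 had 0.05 over the 8 Spc libraries. The libraries share stage, genotype and depth, so these values describe the pattern and carry no test.

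Young retrotransposon copies inside the members were few. Of the copies within their spans, 3 belonged to young L1 subfamilies, all outside exons: a 179 bp L1Md_T copy in Gfra1, a 149 bp L1Md_F3 copy in Ret and an 87 bp L1Md_T copy in Sall4. In the deposited TPM values (transcript abundance scaled by copy length and library), the Ret copy had 3.99, 1.69 and 2.61 in KO Spg and was listed at 0, 1.64 and 1.47 in WT Spg. In Spc it was listed above 0 in KO library 3 alone (2.93), the KO Spc library with the highest Ret level. The Gfra1 copy was listed at 0.723 in KO Spg library 3 and 0.601 in KO Spc library 4 and at 0 elsewhere, and the Sall4 copy at 0 in all 14 libraries.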

How the data were processed

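Sorted spermatogonia and spermatocytes had been profiled by stranded polyA RNA sequencing. The authors trimmed reads (cutadapt 4.0), aligned them to GRCm38 (STAR 2.7.3a) and deposited, per stage, raw read counts for genes and retrotransposon subfamilies (TEtranscripts, GENCODE M25), with fold changes and p-values of their DESeq2 (1.44.0) comparisons, which were not used. They also deposited TPM per retrotransposon copy (TElocal), used for copies inside the 10 genes and not tested. The study left out 1 Spg library per genotype, not analysed here, and Spg columns numbered 4 were matched to samples titled replicate 3. No column lacked a sample (0).

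Counts were tested with edgeR 4.0.16 (R 4.3.3; quasi-likelihood, TMM factors, filterByExpr, Benjamini-Hochberg over all features, adjusted p under 0.01). Spg and Spc were fitted separately for genotype, and all 14 libraries together for stage and for the difference. The fits were tested on simulated data, where all 100 genes changed by 3 (log2) and 92% (Spg) or 99% (Spc) of those changed by 1.5 were recovered. The simulation gave every gene the same spread between libraries, which real genes do not have. These shares thus do not tell how often such changes would be found in the real libraries. DESeq2 1.42.0, other scalings, filters and thresholds, the replicate number as a block, summed libraries and leaving out libraries were alternatives. Leaving out KO Spc libraries 1 and 4 together was chosen after seeing the data. Deviations of same-numbered Spg libraries correlated at 0.662, 0.146 and 0.257, so the numbers were taken as possible pairs. KO Spg library 2 correlated more with WT library 3 (0.29) than with WT library 2. The pairing is thus uncertain, and the main Spg fits, for genotype alone, did not use it. In Spc the values for same-numbered libraries ran from -0.035 to 0.196 and the numbers were not taken as pairs.

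The members and lists were chosen with earlier results of these data known. All 10 members are named, with at most 5 called genes per other list in order of p, marker genes by level, and the 5 genes most correlated with the mean z-score of the members. Some genes that this rule names are not reported here. Total counts of 40555726 to 53323651 per library keep counting error small for most values, but Nanos2, Nanos3 and, in WT Spc, Ret (11 to 235 counts), Lin28a (from 28), Sall4 (from 35) and Zbtb16 (from 39) had few counts in some libraries, and intervals cover counting error only. Gene positions are from GENCODE M21 and promoters from RefSeq, both on GRCm38. Summaries and plots used Python 3.11.15 with pandas 2.3.3, NumPy 2.4.6, SciPy 1.17.1 and matplotlib 3.10.9.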

Additional observations from a re-analysis of the deposited data

Results flagged for a closer look

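In groups of 4 libraries, a library was picked out when its gap to the nearest other library divided by the range of the group exceeded the 95% critical value of Dixon's test. Chance alone picks out about 1 in 20 groups where the values are independent and normally distributed. That is not known to hold for CPM, and Spc libraries 1 and 4 were much alike. The 20 combinations of gene and Spc group examined share the same libraries, so they are not independent. The 3 results picked out are thus a description and were not set against a chance rate. Zbtb16 in KO Spc library 3 (51.7 CPM, gap 0.937 of the range) and in WT Spc library 3 (14.04 CPM, 0.884) and Ret in WT Spc library 3 (5.63 CPM, 0.929) were the highest of their groups by this measure. The KO effect on Id4 differed between the stages, with a difference of -3.36 (log2, edgeR adjusted p = 0.00065) from -1.43 in Spg and -4.70 in Spc in the separate fits.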

How the results depend on the processing

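Over all features, library totals in place of TMM factors moved the share of higher calls from 47.7% to 62.7% in KO against WT Spc, from 56.2% to 34.4% in WT Spc against WT Spg and from 42.9% to 71.1% for the difference. The count of 0 members in Spg held under every alternative run. In KO against WT Spc the 7 members called became 4 with libraries 1 and 4 summed (Nanos2 then being tested and called), 3 without KO libraries 1 and 4, and 3 to 8 without each library in turn. In WT Spc against WT Spg they were 8 to 10 without each library and 9 with libraries 1 and 4 summed (45.0% of all features), Etv5 being lost. In KO Spc against KO Spg the count of 0 became 2 at an adjusted p under 0.05 (8.33% of all features), 2 with DESeq2 (9.53% of all features) and 1 without the filter on low counts (2.14%), and was 0 to 1 without each library. For the difference the count of 1 became 8 at an adjusted p under 0.05 (44.8% of all features), 2 with DESeq2 size factors (26.6% of all features), 3 with library totals (23.8%), 5 with the DESeq2 Wald test (39.5%), 2 without the filter (19.0%), 2 with a mean count of at least 50 (36.5%) and 1 to 7 without each library. In fits blocked on replicate number (replicate block) the count was 6 for the difference (23.9% of all features), 8 in KO against WT Spc (50.9%; Ret 2.92, adjusted p = 0.0033), 10 in WT Spc against WT Spg (49.3%) and 0 in both other comparisons; the Spc libraries share only a number. The causes were not tested.

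Directions turned in Spg with the block for Zbtb16 (-0.011), Gfra1 (-0.066), Ret (-0.083) and Etv5 (-0.069). Without each library in turn the Spg values ran from -0.13 to 0.28 for Zbtb16, -0.20 to 0.55 for Gfra1, -0.26 to 0.48 for Ret, -0.18 to 0.31 for Etv5, -0.38 to 0.55 for Nanos2, -0.10 to 0.41 for Lin28a, -0.17 to 0.26 for Sall4 and -0.17 to 0.15 for Foxo1. Gfra1 in KO against WT Spc was 0.56 with library totals, 0.065 with libraries summed, 0.34 without KO libraries 1 and 4 and -0.78 to 0.082 without each library. Its difference between stages was 0.40 with library totals, 0.22 without KO libraries 1 and 4 and -0.90 to 0.059 without each library. Etv5 in KO Spc against KO Spg was -0.65 without KO libraries 1 and 4. Of the 152 other values for single genes in KO against WT Spc, 118 kept direction and side of the threshold, 27 lost the call, 3 gained it and 4 changed direction. In WT Spc against WT Spg 222 of 229 such values kept both and 7 lost the call. Depth limits Nanos2 and Nanos3 in WT Spc, with 0 to 8 counts per library, and Ret, with 11 to 25 in 3 of the 4.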
